A study of Mus musculus with 6 samples.

Results

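Schwann cells, the glia of peripheral nerves, and melanocytes, the pigment cells of skin and mucosa, both descend from the neural crest. The genes described here are 33 listed markers of these lineages, of which 15 belong to peripheral glia, 12 to melanocytes and 6 to central glia as a check. They were listed by symbol and matched to the table by mouse Ensembl gene ID. The rule uses no measured value, but the list was drawn up with earlier results of these data known. A row was found for 32 of the 33, among the 55631 gene IDs of the table, and Slc45a2, a melanosome transporter gene, is not analysed here.

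Bulk RNA-seq was made from palatal shelves of mouse embryos at stage E14.5. The KO embryos were p130Cas fl/fl with a CAG-Cre transgene, in 3 libraries. The control embryos were p130Cas fl/fl, titled WT and labelled with no Cre, also in 3 libraries. Both groups therefore carried the same floxed alleles of the gene for p130Cas, a scaffold protein of cell adhesions. CAG is a broadly active promoter, so Cre is not limited by it to mesenchyme, glia or any other cell type. Litters and pooling of embryos are not stated in the labels. The p-values therefore cover the variation among these 6 libraries alone, which may be technical.

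In the embryo, crest cells that keep Sox10 follow growing nerves as Schwann cell precursors. They depend on neuregulin signals through the receptor pair Erbb3 and Erbb2, and they later give rise to Schwann cells and also to some melanocytes. Melanocyte precursors need the transcription factor Mitf and the receptor Kit, and they make pigment with Tyr, Tyrp1 and Dct. Nerve branches enter the palatal shelves, so their glia may be part of the dissected tissue, whose cell content the labels do not give.

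Values are FPKM, fragments scaled per gene length and library size. Between 21500 and 21869 genes were above 0 in a library. No value lay between 0 and 0.1 FPKM, and the smallest value above 0 was at most 0.118 FPKM in any library, so a gene listed at 0 may lie under this limit. Depth is unknown. Bcar1, the p130Cas gene, had 1.69, 1.69 and 1.31 FPKM in KO libraries, against 1.80, 1.97 and 2.09 FPKM in control libraries. The groups did not overlap for Bcar1, but its difference did not pass the test (limma, log2 fold change -0.21 ± 0.11 SE, adjusted p = 1.00). This is a whole-gene value and therefore a weak check of a deletion of some exons. The libraries also differed in markers of other cells. The summed level of 22 macrophage and leukocyte markers was 161, 198 and 143 FPKM in KO libraries, against 105, 112 and 129 FPKM in control libraries. Of 16 oral epithelium markers, all 16 were highest in KO replicate 2.

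None of the glial or melanocyte genes passed the test between genotypes. To be tested, a gene had to average 1 FPKM or more in these libraries, which 16 of the 33 genes did: 12 peripheral glial, 2 central glial and 2 melanocyte genes. A further 11 were above 0 in at least 1 library but under the filter, and 5 were listed at 0 in all 6 libraries. The genes nearest to the filter were Mal, with a mean of 1.58 FPKM, and Mitf, with a mean of 0.927 FPKM. Over all 14714 tested genes, limma called 49, or 0.333%, at an adjusted p under 0.05. Of these 48, or 0.326%, were higher in KO libraries and 1, or 0.00680%, was lower.

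Of the 16 tested marker genes 0 were called by limma in either direction, and 0 had an unadjusted p under 0.05, a limit passed by 4.01% of all tested genes. A count of 0 among 16 is near that background and is not a result about these genes. The adjusted p was 1.00 for each of the 16. The median log2 fold change was -0.02 over the 16 genes and -0.02 over all tested genes. It was -0.05 for the peripheral glial genes, 0.13 for the central glial genes and -0.10 for the melanocyte genes. These group medians moved when a library was left out. The peripheral median was 0.0096 without control replicate 3 and -0.09 without KO replicate 1, the central 0.024 without control replicate 3 and 0.24 without control replicate 1, and the melanocyte median -0.04 without control replicate 1. Of the 16 log2 fold changes, 14 lay between -0.25 and 0.25, and the other 2 were Fabp7 and S100b. The 5th to 95th percentile of all tested genes ran from -0.20 to 0.19. Fabp7, S100b, Egr2 and Sox8 lay outside that range. For 13 of the 16 the 95% interval of the difference stayed within 0.58 of 0 on the log2 scale, and the exceptions were Fabp7, Egr2 and S100b. Fold changes were computed after adding 1 FPKM to each value, so those of low genes are understated. With 0.1 FPKM added instead, Egr2 was at -0.45 and Sox8 at -0.27. In whole tissue, fewer cells of a type and less RNA per cell cannot be told apart.

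**Figure D1:**
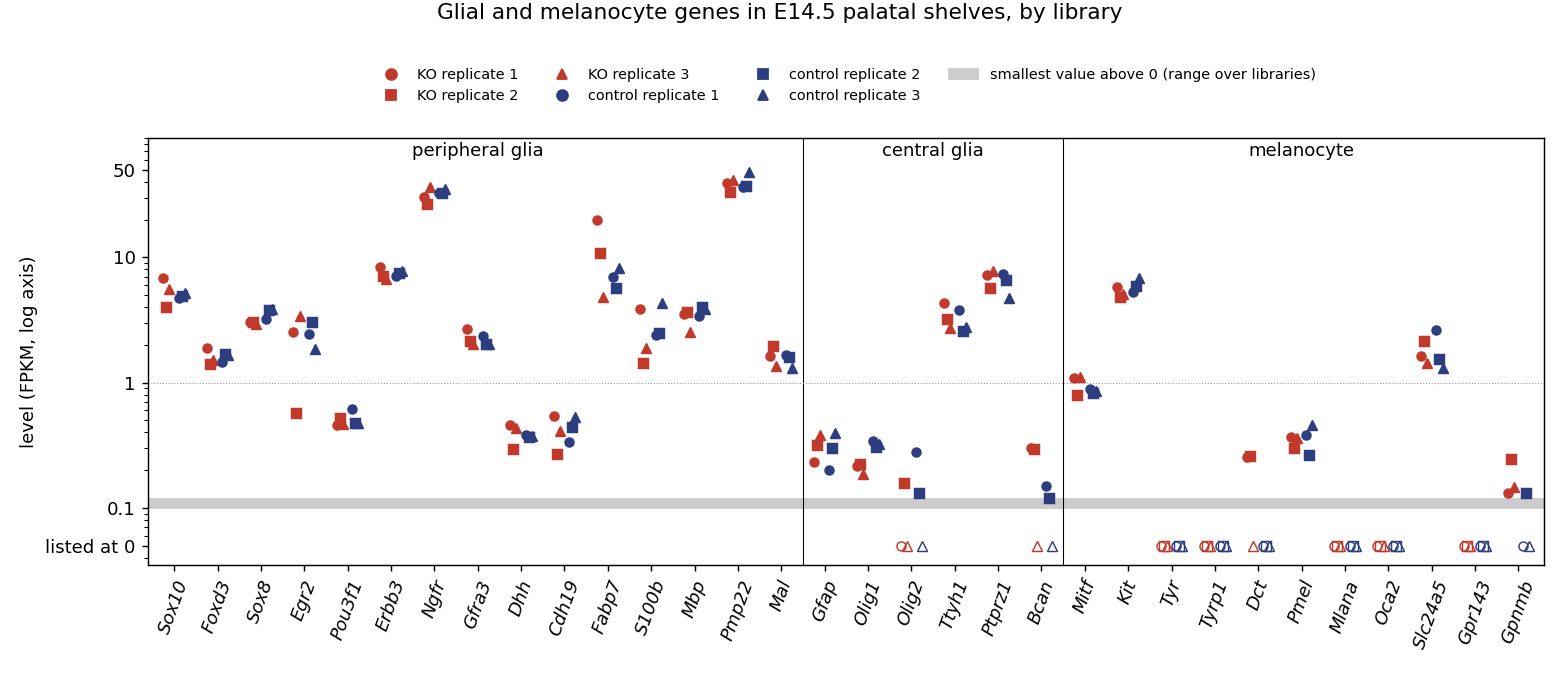
Level in FPKM on a log axis of the 32 glial and melanocyte genes in each of 3 KO (red) and 3 control (blue) libraries. Open symbols are values listed at 0, the grey band spans the smallest value above 0 by library (at most 0.118 FPKM) and the dotted line is the 1 FPKM filter. Ngfr and Pmp22 lie highest, and the 3 melanosome enzyme genes lie at or near the limit of the table.

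Transcription factors listed for crest-derived glia were present at low levels in every library. In whole tissue their reads cannot be assigned to glia alone. Sox10 (chr15:79154908-79165240, minus strand, on GRCm38), which specifies and maintains this lineage, had 6.84, 3.99 and 5.57 FPKM in KO libraries, against 4.74, 4.94 and 5.23 FPKM in control libraries. Its highest and its lowest value were both in KO libraries, around controls that lay close together. Sox10 averaged 5.47 ± 1.43 FPKM in KO and 4.97 ± 0.246 FPKM in control libraries (SD, n = 3 each). The log2 fold change was 0.09 ± 0.16 SE, and its 95% interval ran from -0.27 to 0.46.

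Foxd3, an early crest and glial precursor factor, had 1.90, 1.41 and 1.52 FPKM in KO libraries, against 1.46, 1.68 and 1.68 FPKM in control libraries. The group means were 1.61 ± 0.258 FPKM in KO and 1.61 ± 0.124 FPKM in control libraries, so no difference in mean was seen, with an interval from -0.26 to 0.26 on the log2 scale.

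Sox8 (chr17:25565892-25570686, minus strand), a relative of Sox10 from the same subfamily, was the tested gene of the set whose groups did not overlap. It had 3.04, 3.03 and 2.92 FPKM in KO libraries, against 3.20, 3.82 and 3.89 FPKM in control libraries. Each KO library was lower than each control library, though KO replicate 1 and control replicate 1 were close. Over all tested genes, 5.79% had the 3 KO values below the 3 control values and 3.27% had them above, beside 1 and 0 of the 16 marker genes. The log2 fold change of Sox8 was -0.21 ± 0.09 SE, and its interval ran from -0.43 to 0.01 (limma, adjusted p = 1.00). Of the exon bases of Sox8, 10.6% overlap the gene 2810468N07Rik on the opposite strand, which had 1.19 to 2.34 FPKM. The strand setting of the counting is not given in the sources used here, so reads in that overlap cannot be told apart.

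Egr2, which drives myelination, varied far more. It had 2.55, 0.567 and 3.42 FPKM in KO libraries, against 2.45, 3.07 and 1.85 FPKM in control libraries. The highest library was 6.02 times the lowest, and both were KO libraries. The log2 fold change of -0.23 ± 0.36 SE turned to 0.21 with KO replicate 2 left out. Among all tested genes, 98.0% had a lower coefficient of variation over the 6 libraries than Egr2. Pou3f1, a factor of the promyelinating stage, stayed under the filter at 0.456 to 0.518 FPKM in KO and 0.475 to 0.617 FPKM in control libraries.

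Of the receptors, Ngfr stood at a level well above the transcription factors. Ngfr, the low-affinity neurotrophin receptor, marks crest cells and immature Schwann cells and is also known in some mesenchyme. It had 30.5, 26.8 and 36.7 FPKM in KO libraries, against 32.5, 32.7 and 35.4 FPKM in control libraries. The KO range enclosed the control range. The log2 fold change was -0.10 ± 0.11 SE, with an interval from -0.36 to 0.15. In control libraries its mean exceeded that of 85.3% of tested genes, against 32.6% for Sox10.

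Erbb3, the neuregulin receptor on which Schwann cell precursors depend, had 8.30, 7.10 and 6.76 FPKM in KO libraries, against 7.05, 7.46 and 7.83 FPKM in control libraries. It was one of the steadiest of these genes: the means were 7.39 ± 0.808 FPKM in KO and 7.45 ± 0.392 FPKM in control libraries, and the interval of the log2 difference was -0.23 to 0.20. Gfra3, a glial co-receptor for the ligand artemin, had 2.69, 2.14 and 2.04 FPKM in KO libraries, against 2.37, 2.03 and 2.05 FPKM in control libraries. These groups overlapped, with KO replicate 1 highest. Dhh, the hedgehog ligand that Schwann cells send to the nerve sheath, was under the filter, at 0.293 to 0.459 FPKM in KO and 0.370 to 0.380 FPKM in control libraries.

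Proteins of precursors and immature glia gave the widest spread of the set. Fabp7 (chr10:57784881-57788450, plus strand), a fatty acid binding protein of Schwann cell precursors and of radial glia in the brain, had 19.8, 10.9 and 4.82 FPKM in KO libraries, against 7.01, 5.74 and 8.20 FPKM in control libraries. KO replicates 1 and 2 lay above every control, and KO replicate 3 lay below every control. The means were 11.8 ± 7.53 FPKM in KO and 6.98 ± 1.23 FPKM in control libraries, a log2 fold change of 0.51 ± 0.40 SE with an interval from -0.42 to 1.44 (limma, adjusted p = 1.00). Without KO replicate 1 it was 0.07, and without KO replicate 3 it was 0.99 (limma, adjusted p = 0.462). Among tested genes, 99.1% had a lower coefficient of variation over the 6 libraries.

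Of the other tested genes, Erbb3, Gfra3, Sox8 and Ttyh1 had the same descending order over KO replicates 1 to 3, each with a far smaller spread. Without Fabp7, the summed level of the 14 remaining peripheral glial genes was 106, 86.7 and 108 FPKM in KO libraries, against 99.2, 102 and 116 FPKM in control libraries. KO replicate 2, second highest for Fabp7, was lowest for this sum, most of which is Ngfr and Pmp22. Ttr and Folr1, genes of the choroid plexus, a brain epithelium, followed the Fabp7 order in KO libraries. They come from a list of 12 genes written after values had been seen, and not all of that list followed this order. Of its 7 tested genes, 5 were highest in KO replicate 1 and 2 in control replicate 3. KO replicate 3 was lowest for 3 of the 7, KO replicate 2 for 2, and control replicates 1 and 2 for 1 each. Ttr had 115, 8.90 and 0.123 FPKM in KO libraries, against 0.472, 0.172 and 0.285 FPKM in control libraries. Folr1 had 2.20, 0.215 and 0.111 FPKM in KO libraries and was listed at 0 in all control libraries, and Kl was listed at 0 in all 6. Kcne2, also of this list, had 3.59, 0.251 and 0 FPKM in KO libraries, against 0, 0.123 and 0 FPKM in control libraries. The summed level of the 12 genes, 11 of them above 0 in at least 1 library, was 1002, 746 and 822 FPKM in KO libraries, against 790, 822 and 923 FPKM in control libraries. KO replicate 1 was highest and KO replicate 2 lowest, but most of this sum is Igf2, which mesenchyme also makes. The part of choroid plexus or other brain RNA in the Fabp7 values was not tested.

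S100b, a calcium-binding protein of Schwann cells and other glia, had 3.86, 1.44 and 1.88 FPKM in KO libraries, against 2.39, 2.51 and 4.32 FPKM in control libraries. The highest library was a control and the next was a KO. The log2 fold change was -0.30 ± 0.28 SE with an interval from -0.94 to 0.35. It was -0.59 without KO replicate 1 and -0.09 without control replicate 3. Cdh19, a cadherin of Schwann cell precursors, was under the filter at 0.271 to 0.537 FPKM in KO and 0.333 to 0.535 FPKM in control libraries.

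Neuron markers also varied between libraries of the same genotype. The summed level of 26 neuron markers was 200.5, 131 and 108 FPKM in KO libraries, against 131, 159 and 204 FPKM in control libraries. Of its 20 tested genes 0 were called, and 2 had an unadjusted p under 0.05 (limma), beside 0.333% and 4.01% of all tested genes. KO replicate 1 and control replicate 3 were highest in this sum, as they were for S100b. The 20 tested genes had a median log2 fold change of -0.14, with 12 below 0 and 8 above. The 4 with the smallest p were Prph, Uchl1, Tac1 and Dcx, and none was called (limma). Their log2 fold changes were -0.83 ± 0.28 SE, -0.44 ± 0.19 SE, -0.37 ± 0.17 SE and 0.20 ± 0.13 SE. For Prph the groups did not overlap, with means of 5.97 ± 0.660 FPKM in KO and 12.1 ± 5.50 FPKM in control libraries. Nefm, a neurofilament subunit chosen after its values were seen, had 15.1, 3.04 and 3.57 FPKM in KO libraries, against 3.62, 3.58 and 4.21 FPKM in control libraries. Like Fabp7 it was highest in KO replicate 1, but it was not raised above the controls in KO replicate 2. The part of nerve content in the glial values was not tested.

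Myelin genes were read at levels that set Pmp22 apart. Pmp22, a membrane protein of compact myelin that many other cells also make, had 39.5, 33.5 and 41.5 FPKM in KO libraries, against 36.6, 37.4 and 47.7 FPKM in control libraries. Its groups overlapped, and the log2 fold change was -0.08 ± 0.12 SE. Mbp, myelin basic protein, had 3.51, 3.69 and 2.55 FPKM in KO libraries, against 3.42, 3.99 and 3.88 FPKM in control libraries. KO replicates 1 and 2 lay within the control range and KO replicate 3 lay below it, for a log2 fold change of -0.17 ± 0.13 SE. Mal, a membrane protein of myelin and of epithelia, had 1.62, 1.95 and 1.35 FPKM in KO libraries, against 1.67, 1.59 and 1.30 FPKM in control libraries, and its groups overlapped.

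Other genes of the Schwann cell lineage were counted in the same way. Of 35 listed, 25 were tested, 0 were called, and 0 had an unadjusted p under 0.05 (limma), beside 0.333% and 4.01% of all tested genes. The median log2 fold change was -0.06, and single values ran from -0.35 to 0.12. By the rule, the 4 genes of this list with the smallest p were Sostdc1, Gap43, Ret and L1cam. Sostdc1, a secreted inhibitor also made by epithelia, had 25.9, 26.2 and 25.6 FPKM in KO libraries, against 30.6, 28.8 and 26.7 FPKM in control libraries. The groups did not overlap, and the log2 fold change was -0.14 ± 0.07 SE. Gap43, a growth cone protein of axons and of immature glia, averaged 30.7 ± 4.17 FPKM in KO and 37.3 ± 7.81 FPKM in control libraries. Ret, a receptor that pairs with GDNF family co-receptors, averaged 1.49 ± 0.765 FPKM in KO and 2.13 ± 0.656 FPKM in control libraries. L1cam, an adhesion protein of axons and Schwann cells, averaged 3.88 ± 1.13 FPKM in KO and 4.89 ± 1.21 FPKM in control libraries. None of these 4 differences passed limma.

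**Figure D2:**
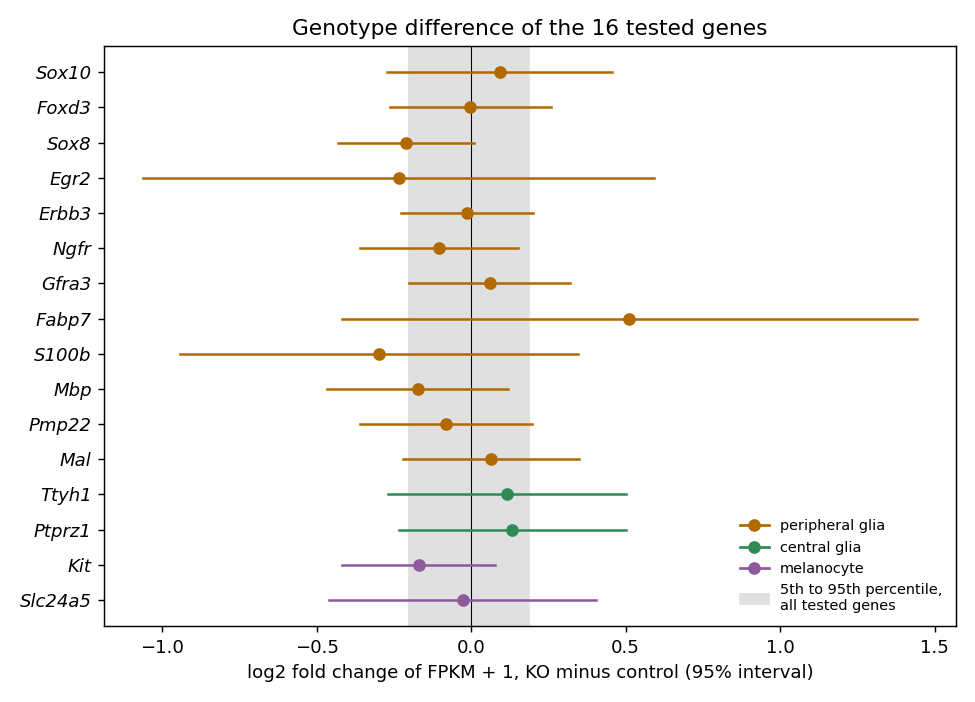
log2 fold change, KO minus control on the log2(FPKM + 1) scale, with 95% intervals from limma for the 16 tested glial and melanocyte genes. The grey band spans the 5th to 95th percentile of all tested genes. All 16 intervals include 0, and those of Fabp7, Egr2 and S100b are the widest.

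Of the central glial genes, 4 lay under the filter. Gfap, the filament protein of astrocytes, had 0.233, 0.319 and 0.379 FPKM in KO libraries, against 0.202, 0.301 and 0.396 FPKM in control libraries. Olig2, a factor of the oligodendrocyte lineage, was listed at 0 in 2 KO libraries and 1 control library and reached at most 0.159 FPKM in KO and 0.279 FPKM in control libraries. Bcan, an extracellular proteoglycan of the brain, had 0.299, 0.297 and 0 FPKM in KO libraries, against 0.150, 0.119 and 0 FPKM in control libraries. The groups overlapped for all 3 genes. In a list of 18 further oligodendrocyte and astrocyte markers, 13 were above 0 in all 6 libraries, and 3 (Mobp, Opalin and Nkx2-2) were listed at 0 in all of them. Of the 18, 8 passed the filter. Of these 8 limma called 0, and 1, Slc1a3, had an unadjusted p under 0.05, beside 0.333% and 4.01% of all tested genes. Among the 8 was Gja1, a gap junction protein of many tissues, at 43.7 to 45.7 FPKM in KO and 42.0 to 43.5 FPKM in control libraries.

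Olig1, the partner of Olig2 in the oligodendrocyte lineage, had 0.215, 0.223 and 0.186 FPKM in KO libraries, against 0.339, 0.306 and 0.326 FPKM in control libraries. The groups did not overlap, but all values were under the filter. In a limma fit with no filter its log2 fold change was -0.13, with an adjusted p of 0.965. That fit covered 27 of the 33 genes and called 0 of them, against 0.272% of 25387 genes.

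The 2 central glial genes that passed the filter are also made outside the brain. Ttyh1, a membrane channel protein, had 4.33, 3.20 and 2.72 FPKM in KO libraries, against 3.82, 2.58 and 2.78 FPKM in control libraries. Ptprz1, a receptor phosphatase of glial precursors, had 7.16, 5.73 and 7.83 FPKM in KO libraries, against 7.33, 6.64 and 4.77 FPKM in control libraries. The groups overlapped for both, with log2 fold changes of 0.12 ± 0.17 SE for Ttyh1 and 0.13 ± 0.16 SE for Ptprz1. Slc1a3, a glutamate transporter of astrocytes that other tissues make too, was the gene with the smallest p in the further list, at 20.2, 21.1 and 24.0 FPKM in KO libraries, against 20.5, 16.8 and 16.7 FPKM in control libraries (limma, log2 fold change 0.26 ± 0.10 SE, adjusted p = 1.00).

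Melanocyte regulators were read in every library, while most pigment genes were at or near the limit of the table. Kit (chr5:75574916-75656722, plus strand), the receptor for stem cell factor on melanocyte precursors and on mast cells, had 5.76, 4.79 and 5.09 FPKM in KO libraries, against 5.29, 5.92 and 6.79 FPKM in control libraries. KO replicate 1 lay inside the control range and the other KO libraries below it. The SD was 0.494 FPKM in KO and 0.752 FPKM in control libraries, and the log2 fold change was -0.17 ± 0.11 SE with an interval from -0.42 to 0.08 (limma, adjusted p = 1.00).

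Mitf, the master regulator of melanocytes and also active in macrophages, osteoclasts and mast cells, was under the filter. It had 1.09, 0.797 and 1.10 FPKM in KO libraries, against 0.892, 0.820 and 0.861 FPKM in control libraries. KO replicate 2 was lowest and the other KO libraries were highest.

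Markers of other cells that use Kit or Mitf were present. The summed level of 12 mast cell markers was 10.4, 16.7 and 11.9 FPKM in KO libraries, against 10.8, 11.1 and 8.61 FPKM in control libraries. Mcpt2, Tpsab1, Ms4a2 and Fcer1a of that list were listed at 0, and 4 of the 12 were tested. Of these 4 limma called 0, and 1, Srgn, had an unadjusted p under 0.05, beside 0.333% and 4.01% of all tested genes. Of 17 tested macrophage and leukocyte markers 0 were called, and 12 had an unadjusted p under 0.05 (limma), beside 4.01% of all tested genes. For 12 the 3 KO values all lay above the 3 control values, beside 3.27% of all tested genes. A log2 fold change above 0 was seen for 16 of the 17, with a median of 0.42. Lyz2, a lysozyme of macrophages, came nearest to a call (limma, adjusted p = 0.152). It had 17.0, 17.1 and 12.7 FPKM in KO libraries, against 7.21, 9.81 and 9.17 FPKM in control libraries. The summed level of 10 osteoclast markers was 44.1, 48.7 and 61.8 FPKM in KO libraries, against 64.8, 64.1 and 55.3 FPKM in control libraries. All 4 tested osteoclast markers had a log2 fold change below 0, with a median of -0.23. The part of mast cells, macrophages and osteoclasts in the Mitf and Kit values was not tested.

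Enzymes of melanin synthesis were at or near the limit of the table. Tyr, tyrosinase, which carries out the rate-limiting step, and Tyrp1, a tyrosinase-related enzyme, were listed at 0 in all 6 libraries. Dct, dopachrome tautomerase, had 0.256, 0.259 and 0 FPKM in KO libraries and was listed at 0 in all 3 control libraries. With no depth to place these values, no fold change is given. Dct is also made in the embryonic forebrain and in retinal pigment epithelium. Of 10 listed retinal pigment epithelium markers, 3 (Rpe65, Rgr and Slc6a20a) were listed at 0 and 6 were above 0 in all 6 libraries, and 1 is not analysed here. Their summed level was 137, 28.1 and 13.5 FPKM in KO libraries, against 15.9, 14.3 and 15.9 FPKM in control libraries. Ttr, which choroid plexus and retinal pigment epithelium share, makes up most of the sum in KO replicate 1. Ptgds, another gene of that list also made in the brain's coverings, had 3.98, 3.25 and 0.712 FPKM in KO libraries, against 1.28, 0.210 and 0.511 FPKM in control libraries. Both were highest in KO replicates 1 and 2, where Dct was above 0. The part of brain or retinal RNA in the Dct values was not tested.

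Promoter sequences are shown for the 4 melanocyte genes whose windows hold TCATGTG. These are core letters of the M-box, an element known to bind Mitf, and are called M-box letters here. The bases beside them were not part of the search. The set puts 3 genes at or near 0 beside Slc24a5, which was read in every library. Windows of 250 bases before to 50 bases from the gene start came from RefSeq on GRCm38.p6, and 22 of the 33 genes had one. Each line gives 80 bases of the gene's strand, 5′ to 3′, with the M-box letters in capitals. In Slc24a5 the M-box letters are on the other strand and read CACATGA. The next letters are ct in Tyr, Tyrp1 and Dct, but ag in Slc24a5 when read on that other strand.
Tyr: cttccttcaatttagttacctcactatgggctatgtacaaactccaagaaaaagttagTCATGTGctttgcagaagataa
Tyrp1: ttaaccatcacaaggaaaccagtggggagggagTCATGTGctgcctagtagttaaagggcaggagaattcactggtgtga
Dct: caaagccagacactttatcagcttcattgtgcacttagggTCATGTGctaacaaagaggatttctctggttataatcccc
Slc24a5: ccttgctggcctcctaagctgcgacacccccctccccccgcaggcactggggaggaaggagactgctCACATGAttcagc

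The Tyr stretch is chr7:87493513-87493592 on the minus strand, and its M-box letters begin at base -22, counting the base before the start as -1. The Tyrp1 stretch is chr4:80834133-80834212 on the plus strand, with the M-box letters at base -47. The Dct stretch is chr14:118052358-118052437 on the minus strand, with the M-box letters at base -151, and a further match begins at base -232 outside it. The Slc24a5 stretch is chr2:125068047-125068126 on the plus strand, with the M-box letters at base -13.

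Both strands were searched for each motif. TCATGTG was found in 4 of 8 melanocyte genes with a window and in 0 of 14 glial genes, against 4.31% of 27025 genes with windows. CATGTG, the shorter letters it contains, was found in 5 of 8 melanocyte genes, the same 4 and Oca2, and in 1 of 14 glial genes, Egr2, against 15.9% of all. The Sox-type letters ACAAAG were found in 4 of 8 melanocyte genes and 0 of 14 glial genes, against 21.0% of all, and ACAATG in Dct and Olig2, against 14.3% of all. These are matches of letters in a window, and genes with and without the M-box letters were both listed at 0.

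Genes of the melanosome's structure and transport were likewise low. Mlana, Oca2 and Gpr143, membrane proteins of the melanosome, were listed at 0 in all 6 libraries. Pmel, which forms the melanosome's fibrils, had 0.369, 0.302 and 0.359 FPKM in KO libraries, against 0.378, 0.266 and 0.461 FPKM in control libraries. Of the exon bases of Pmel, 6.06% overlap other genes on the opposite strand, one of them Cdk2 at 31.3 to 39.9 FPKM, so its low values cannot be told apart from reads of that neighbour.

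Gpnmb, a glycoprotein of melanosomes and macrophages, had 0.131, 0.246 and 0.146 FPKM in KO libraries, against 0, 0.131 and 0 FPKM in control libraries. The KO values lay above the control values but were almost level with them at the nearest pair, KO replicate 1 and control replicate 2, and all were close to the limit of the table. In the limma fit with no filter its adjusted p was 0.965. The macrophage markers were also higher in these KO libraries by sum, and their part in the Gpnmb values was not tested.

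Slc24a5 (chr2:125068124-125088677, plus strand), an ion exchanger needed for pigmentation, was the pigment gene with the highest level among the melanosome genes. It had 1.63, 2.15 and 1.42 FPKM in KO libraries, against 2.61, 1.56 and 1.30 FPKM in control libraries. Control libraries held both its highest and its lowest value, and the log2 fold change was -0.03 ± 0.19 SE. Of its 2330 exon bases 39.5% overlap Myef2 on the opposite strand, which had 44.9, 41.9 and 48.4 FPKM in KO libraries, against 51.9, 45.0 and 43.3 FPKM in control libraries. Slc24a5 was 2.94% to 5.14% of Myef2 by FPKM, and with the strand setting not given the Slc24a5 level cannot be told apart from reads of Myef2.

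Other genes listed for melanocytes code for signals, transcription factors and organelle proteins. Of 32, 25 were tested, 4 were above 0 but under the filter, 1 (Irf4) was listed at 0 and 2 are not analysed here. By limma 0 were called, and 0 had an unadjusted p under 0.05, beside 0.333% and 4.01% of all tested genes. The median log2 fold change was 0.02, with a range from -0.23 to 0.30. Kitl, the ligand of Kit, had 4.49, 3.28 and 4.91 FPKM in KO libraries, against 4.53, 3.74 and 3.67 FPKM in control libraries. Ednrb, the endothelin receptor of crest cells, had 9.57, 5.20 and 5.68 FPKM in KO libraries, against 6.28, 5.73 and 6.95 FPKM in control libraries. The groups overlapped for both, and both were chosen after their values were seen.

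By the rule, the 4 genes of this list with the smallest p were Hps6, Hps4, Bloc1s1 and Hps3, which act in the making of lysosome-related organelles. Hps6 had 2.32, 2.56 and 2.09 FPKM in KO libraries, against 2.73, 2.78 and 2.95 FPKM in control libraries, and the groups did not overlap. Its log2 fold change was -0.20 ± 0.10 SE (limma, adjusted p = 1.00). The means of the other 3 were 12.3 ± 1.07 FPKM in KO and 13.5 ± 0.665 FPKM in control libraries for Hps4, 40.7 ± 1.41 FPKM in KO and 45.1 ± 5.49 FPKM in control libraries for Bloc1s1, and 2.69 ± 0.742 FPKM in KO and 3.27 ± 0.263 FPKM in control libraries for Hps3.

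Across the set, libraries of the same genotype differed among themselves. KO replicate 1 was the highest library for 6 of the 16 tested genes and the lowest for 0. KO replicate 2 was the highest for 1 and the lowest for 7. Relative to the control mean, the median of the 12 tested peripheral glial genes was 0.10, -0.16 and -0.07 on the log2 scale in KO libraries, against -0.06, -0.00 and 0.06 in control libraries. The corresponding medians of 20 neuron markers were 0.39, -0.26 and -0.50 in KO libraries, against -0.21, 0.02 and 0.23 in control libraries. The median of 10 endothelial markers was lowest in KO replicate 2, at -0.39, as it was for the glial genes. The part of cell composition in these library differences was not tested.

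**Figure D3:**
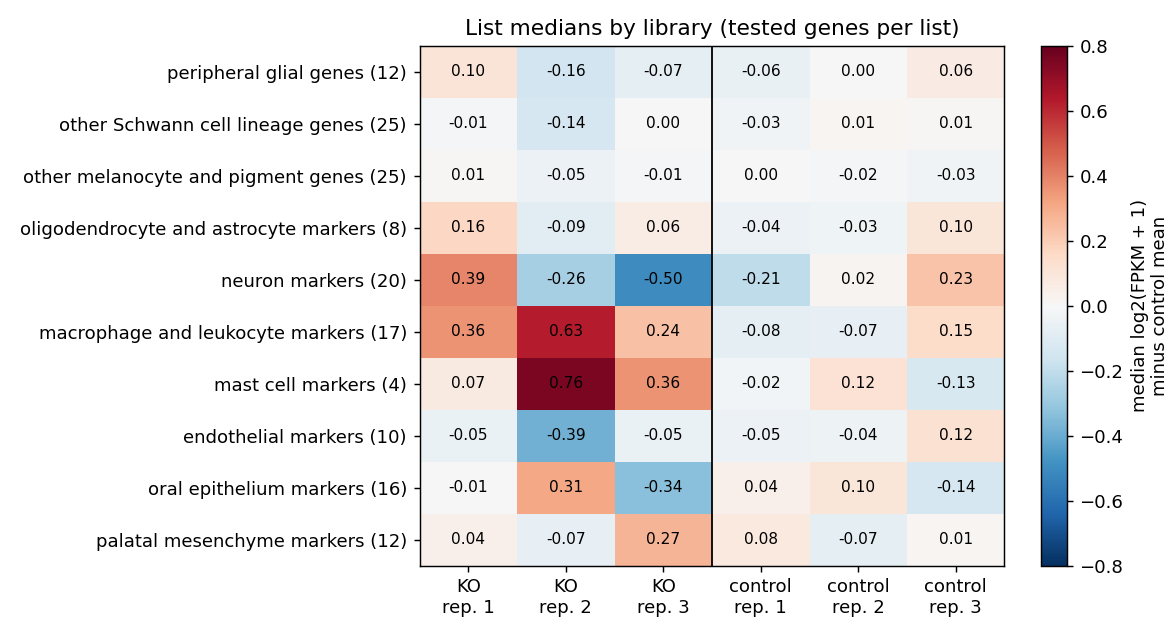
Median log2(FPKM + 1) minus the control mean over the tested genes of each list (number in brackets), for 3 KO (left) and 3 control (right) libraries. Peripheral glial genes stay between -0.16 and 0.10, neuron markers between -0.50 and 0.39, and leukocyte markers are at 0.24 to 0.63 in KO libraries.

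The coefficient of variation over the 6 libraries had a median of 14.8% for the 16 genes and 9.53% for all tested genes. The ratio of the highest to the lowest library had a median of 1.53 over the 16 genes and ran from 1.23 to 6.02. Standard errors of the log2 fold change ran from 0.0917 to 0.401. The 95% intervals are not limits of detection, because a call needed an adjusted p under 0.05 over all 14714 tested genes. Lyz2, whose interval ran from 0.44 to 1.10, was not called (limma, adjusted p = 0.152). A difference in the 16 genes may therefore have gone uncalled.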

How the data were processed

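Palatal shelf RNA was sequenced in 3 KO and 3 control libraries. The table deposited by the authors holds FPKM, as its name says, which scales fragments by gene length and by library. The submitters' processing notes name mm10 and DESeq2 version 1.5.2. Not given in the sources used here are the aligner, counter, annotation release and strandedness. Groups follow the titles. GENCODE on GRCm38 gave symbols and exons through the gene IDs, and 50824 of 55631 IDs matched.

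A linear model of log2(FPKM + 1) on genotype was fitted in limma (version 3.58.1; R version 4.3.3) with lmFit and a trended eBayes. Genes averaging 1 FPKM or more entered it. Tests were two-sided with Benjamini-Hochberg adjustment over all of them and a threshold of 0.05. The fit was tested on simulated data. Correlations between libraries across genes were 0.982 to 0.993, and no pair was identical. Without counts no counting interval is given.

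The 33 genes, the marker lists and the alternatives were chosen with earlier results of these data known, and the choroid plexus and forebrain lists after values had been seen. The rule named all members, Bcar1 and, from a list described beside a member, up to 4 tested genes with the smallest p. Other genes are said to be chosen after their values were seen or mark a cell type. Alternatives changed the pseudocount, the filter, the scaling, the library weights and the block, and left out each library.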

Additional observations from a re-analysis of the deposited data

How the results depend on the processing

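None of the 16 tested genes was called under any of the 15 alternatives that tested it, and the lowest adjusted p of any of them was 0.293, for Sox8 (limma). Over all genes 49 were called, and 33 to 50 when a library was left out. The count was 24 with a filter at 5 FPKM, 67 with a filter at 0.1 FPKM and 69 with no filter. With library weights it was 67. Same-numbered libraries deviated from their group means with correlations of 0.02, 0.31 and -0.24, and unlike-numbered libraries with -0.28 to 0.31. Deviations from a mean of 3 libraries depend on each other, so these values cannot decide whether the numbers mark pairs. With a replicate block 42 genes were called over all and 0 of the 16. The median log2 fold change of all 16 genes was 0.035 with library weights and -0.085 to 0.030 with a library left out, the lowest without KO replicate 1 and the highest without KO replicate 3. The median of the peripheral glial genes was 0.035 with library weights, and that of the melanocyte genes was 0.038 with no filter, over 6 genes. Fabp7, Kit, Mbp, Ngfr and Sox8 kept their sign under the alternatives that tested them (Mbp and Sox8 did not pass the 5 FPKM filter), and the other 11 did not. With a library left out Ngfr still ran from -0.22 without KO replicate 3 to -3.2e-05 without KO replicate 2, Mbp was -0.048 without KO replicate 3 and Kit was -0.090 without control replicate 3. Erbb3 was at 0.0011 and Foxd3 at 0.0082 with median-of-ratios scaling. With rescaling to TPM Erbb3 was at 0.016 and Foxd3 at 0.023. With library weights the log2 fold change was 0.047 for Erbb3, 0.054 for Foxd3, 0.030 for S100b and 0.014 for Slc24a5. With a library left out the log2 fold change ran from -0.54 to 0.21 for Egr2, -0.090 to 0.040 for Erbb3, -0.080 to 0.055 for Foxd3, -0.026 to 0.12 for Gfra3, -0.018 to 0.15 for Mal, -0.15 to 0.038 for Pmp22, -0.022 to 0.24 for Ptprz1, -0.16 to 0.16 for Slc24a5, -0.059 to 0.27 for Sox10 and -0.028 to 0.25 for Ttyh1. The cause was not tested. Values near 0.1 FPKM are limited by the table's lowest reported level.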

Other observations

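Other cell types were listed as markers beside the glial and melanocyte genes. None of their tested genes was called by limma, beside 0.333% of all tested genes. The 4 tested osteoclast markers had a median log2 fold change of -0.23, and all 4 were below 0. Ctsk, a collagen-degrading protease, averaged 25.0 ± 3.87 FPKM in KO and 29.3 ± 1.06 FPKM in control libraries (SD, n = 3 each). The 10 endothelial markers had a median of -0.17, with all 10 below 0. Of these, 3 had an unadjusted p under 0.05 (limma), beside 4.01% of all tested genes. For 4 the 3 KO values all lay below the 3 control values, beside 5.79% of all tested genes. Among them Egfl7, a secreted endothelial protein, had 36.4, 37.5 and 39.8 FPKM in KO libraries, against 42.6, 46.2 and 45.0 FPKM in control libraries (limma, adjusted p = 0.710). The median was 0.00 for 16 oral epithelium markers, 0.06 for 12 palatal mesenchyme markers, -0.02 for 7 salivary and dental markers and -0.11 for 3 olfactory ensheathing glia markers.

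Otx2 and Dlx1, both brain-related, ran in different orders over the KO libraries. The sum of a list of 17 forebrain and radial glia genes ran in the reverse order to Otx2. Otx2, a forebrain and choroid plexus factor, had 4.98, 3.40 and 1.43 FPKM in KO libraries, against 1.79, 2.00 and 2.22 FPKM in control libraries. Dlx1, a homeobox gene of the forebrain and the facial arches, had 22.2, 18.4 and 29.5 FPKM in KO libraries, against 34.7, 33.1 and 31.5 FPKM in control libraries (limma, adjusted p = 0.874). The summed level of 17 forebrain and radial glia genes was 71.2, 75.6 and 78.9 FPKM in KO libraries, against 84.7, 76.5 and 75.8 FPKM in control libraries. These genes were chosen after their values were seen.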
